A study of Mus musculus with 20 samples.

Results

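The glucocorticoid receptor and a set of genes it is known to regulate in liver were followed in a study of midnolin loss in mouse hepatocytes. Their RNA levels are averages over livers with and without that loss. The 10 genes are Nr3c1, which encodes the receptor, and Fkbp5, Tsc22d3, Sgk1, Tat, Zbtb16, Klf9, Mt1, Mt2 and Ddit4. They were picked by symbol, with earlier results of the Midn-T and WT comparison in these livers and of its peak lists known, and each symbol matched 1 gene in both RNA-seq tables. Rows for 56884 genes were read in males and for 18149 genes in females. The ATAC-seq lists add the peaks whose nearest start site of a protein-coding gene belongs to a member, which were 5 of 217 listed peaks in females and 0 of 179 in males.

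Midnolin is a nuclear protein that brings short-lived transcription factors to the proteasome, and the study asked how its loss changes transcription and chromatin in liver. Livers were taken from male and female mice aged 11 to 14 weeks. Animals labelled WT have the genotype Midn XTR, in which a gene-trap cassette lies in the silent orientation within an intron of Midn, and animals labelled Midn-T have the genotype Midn TR, in which Albumin-Cre has turned the cassette so that it traps the transcript and expresses GFP. Both groups therefore carry the cassette. The paper describes the inactivation as selective for hepatocytes, and which allele each other cell type of the liver carries was not measured here. Whether the WT animals carried Albumin-Cre is not given in the sources used here. For each sex, RNA-seq covered 3 livers per genotype, and ATAC-seq, which reads open chromatin with a transposase, covered 2 per genotype.

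For each gene the RNA-seq tables give 1 level per sex that belongs to no single comparison, the authors' mean normalized count over the 6 livers of that sex. WT and Midn-T livers are averaged together in it, so it shows how strongly a gene was expressed and says nothing of the effect of midnolin loss. The effect of genotype appears in the tables only as the authors' own fold changes and p-values, and was not analysed here. Every level below is such a mean without an SD, no p-value is given, and a difference between the sexes cannot be set against the spread between animals. A genotype effect in 1 sex only cannot be told apart from a difference between the sexes. In bulk liver, fewer cells of a type and less RNA per cell cannot be told apart either.

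Glucocorticoids are steroid hormones of the adrenal cortex. Their receptor waits in the cytoplasm with HSP90 and its co-chaperones, enters the nucleus when it binds hormone, and binds DNA at glucocorticoid response elements, a pair of inverted 6-base sites set 3 bases apart. In liver it drives amino acid breakdown and glucose production during fasting and stress, and it induces several of its own brakes. The element was searched as the sites GNACA and TGTNC separated by any 3 bases, where N is any base. This pattern reads the same on both strands. The single site AGAACA was searched on both strands as well.

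The 5 listed female peaks beside members lay near Mt2, Fkbp5, Tat, Klf9 and Zbtb16. A full element was found in the peaks of Mt2 and Zbtb16. The stretches of 200 bases are shown because they are the regions the chromatin result rests on. They are printed from the plus strand of GRCm39, with full elements in capitals in the first pair and the single site in capitals in the next pair. The single sites in the Zbtb16 stretch are left in lower case, and the single site of that peak at 48635130 lies outside the stretch. The Tat stretch is the middle of its peak and holds no match.

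Mt2 peak, chr8:94898070-94898269: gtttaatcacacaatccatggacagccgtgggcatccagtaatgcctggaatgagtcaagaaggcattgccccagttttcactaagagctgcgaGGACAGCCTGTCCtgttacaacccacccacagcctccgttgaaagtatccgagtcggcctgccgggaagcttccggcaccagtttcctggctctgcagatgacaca
Zbtb16 peak, chr9:48634910-48635109: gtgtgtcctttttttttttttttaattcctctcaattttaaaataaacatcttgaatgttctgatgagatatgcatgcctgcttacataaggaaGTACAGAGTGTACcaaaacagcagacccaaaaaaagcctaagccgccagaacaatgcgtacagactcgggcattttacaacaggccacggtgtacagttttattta
Fkbp5 peak, chr17:28731661-28731860: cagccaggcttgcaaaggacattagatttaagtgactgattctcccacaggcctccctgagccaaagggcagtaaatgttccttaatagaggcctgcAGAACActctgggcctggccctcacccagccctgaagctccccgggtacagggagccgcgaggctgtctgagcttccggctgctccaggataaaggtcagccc
Klf9 peak, chr19:23046119-23046318: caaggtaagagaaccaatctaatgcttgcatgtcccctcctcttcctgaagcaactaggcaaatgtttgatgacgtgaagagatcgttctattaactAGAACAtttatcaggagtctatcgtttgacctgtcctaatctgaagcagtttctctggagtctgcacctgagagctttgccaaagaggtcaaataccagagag
Tat peak, chr8:110726782-110726981: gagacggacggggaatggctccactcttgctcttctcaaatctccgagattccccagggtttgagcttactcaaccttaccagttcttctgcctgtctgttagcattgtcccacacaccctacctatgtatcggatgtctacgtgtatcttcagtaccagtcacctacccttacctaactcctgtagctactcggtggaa

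The element in the Mt2 peak reads GGACAGCCTGTCC and begins 968 bases before the canonical start site of Mt2, at 94898164. The element in the Zbtb16 peak reads GTACAGAGTGTAC and lies inside the gene, its middle 112647 bases downstream of the canonical start site, with 3 copies of the single site in the same peak. Of the 217 listed female peaks, 10 held a full element (4.61%), of which 2 are these. Among the 212 listed female peaks nearest to other genes, 8 did (3.77%). In the male list 5 of 179 peaks did (2.79%), and over the genome 0.827% of 5122672 tiles of the same length of 500 bases did. The stricter pattern with AGAACA and TGTTCT as its sites was in 0 of the 5 members' peaks and in 1 of 217. The single site was in 3 of the 5 and in 39.2% of the 217. The shares of the lists pool all kinds of loci and both directions of change. They need not hold for peaks like those of the members, which was not tested.

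**Figure D1:**
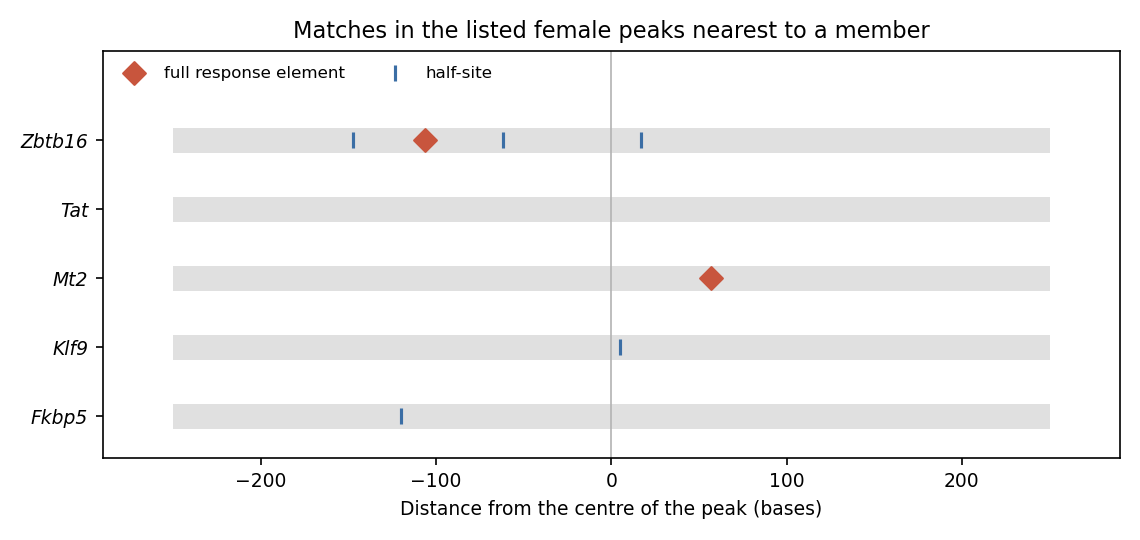
Each grey bar is a listed female peak of 500 bases nearest to a member, and the horizontal axis gives the distance from its centre in bases. Red diamonds mark full elements, at 57 bases from the centre in Mt2 and at -106 in Zbtb16, blue ticks mark the single site AGAACA (half-site in the legend), and the Tat peak holds neither.

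The Mt2 peak (chr8:94897864-94898363) lay upstream of its gene. Its centre was 706 bases before the nearest annotated start site of Mt2 and 1019 before the canonical one, and it overlapped the antisense long noncoding gene Gm45774, whose own mean was 6.57 in males and 12.9 in females. The neighbouring gene Mt1 starts 7597 bases from the same peak. The Fkbp5 peak (chr17:28731632-28732131) lay within an intron of the gene, 1550 bases before an internal start site and 26729 bases before the canonical one. It overlapped no exon of Fkbp5 but did overlap an exon of the noncoding gene Gm65739 on the opposite strand. The Tat peak (chr8:110726632-110727131) lay past the far end of the gene, with its centre 446 bases beyond the last annotated base and 9743 bases from the nearest start site. It overlapped no annotated gene.

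The other 2 peaks were distant. The Klf9 peak (chr19:23045965-23046464) was centred 71973 bases before the start site and overlapped the noncoding genes C330002G04Rik and Gm50136. The Zbtb16 peak (chr9:48634867-48635366) lay within an intron, 110200 bases downstream of the nearest start site. GC content ran from 46.2% at Klf9 to 57.0% at Fkbp5, within a range of 30.6% to 73.2% over the female list. Members' peaks were therefore found in introns, before a gene and after one, and none of the 5 overlapped an exon of its own member.

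Of the 10 members, 5 owned the start site nearest to a listed female peak, beside 0.846% of 21757 protein-coding genes (184 genes), and 0 to a listed male peak, beside 0.814% (177 genes). The members were picked with these lists in view, so nothing is read from that excess. The lists were also made with different cutoffs, an adjusted one in females and an unadjusted one in males, and share 0 overlapping peaks, so the counts of the sexes cannot be compared. For the other members the nearest listed peak was far away. In females it lay 1805485 bases from Ddit4, 3772791 from Sgk1, 7131401 from Nr3c1 and 12182352 from Tsc22d3. In males the shortest distance over all members was 938132 bases, at Mt2, to a peak nearest to Ces1e.

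**Figure D2:**
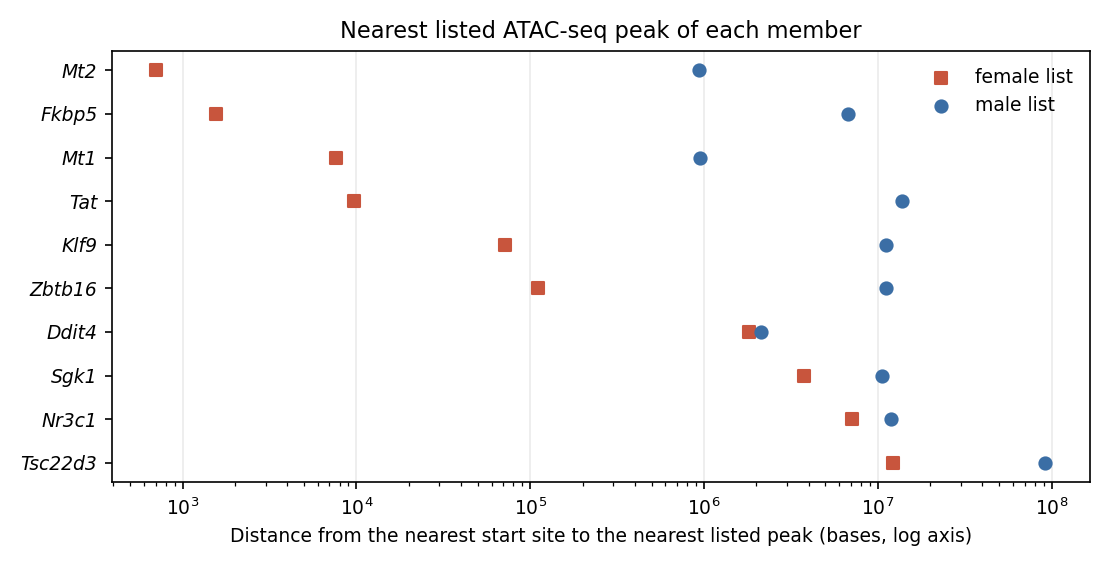
For each member the points give the distance in bases, on a log axis, from its nearest start site to the nearest listed peak of the female list (red squares) and of the male list (blue circles). In females 6 members, Mt1 included, lie within 110200 bases of a listed peak, and in males none lies closer than 938132 bases.

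Full elements were also looked for around the canonical start sites of the members. In the 300 bases from 250 before to 50 after the start, Mt1 alone held one, 87 bases before the start, and 0.384% of the 21603 promoters of protein-coding genes did. From 2000 before to 500 after, 3 members held one, Mt1, Mt2 and Sgk1, against 3.87% of all. The Sgk1 element was also the only match among members to the stricter pattern, which 6 of the 21603 windows held. The element of Mt2 is the one inside its listed peak, and those of Mt1 and Sgk1 lay in no listed peak. They are shown in the direction of the gene, which is the plus strand for both, with the element in capitals.

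Mt1, chr8:94905554-94905703: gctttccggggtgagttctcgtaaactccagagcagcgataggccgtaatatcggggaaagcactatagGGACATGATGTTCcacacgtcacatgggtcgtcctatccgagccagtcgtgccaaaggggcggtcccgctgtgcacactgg
Sgk1, chr10:21869532-21869681: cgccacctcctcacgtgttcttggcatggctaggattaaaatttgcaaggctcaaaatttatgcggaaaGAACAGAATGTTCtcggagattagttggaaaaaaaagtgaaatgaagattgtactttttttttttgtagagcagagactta

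The Mt1 element reads GGACATGATGTTC and the Sgk1 element GAACAGAATGTTC, which begins 964 bases before the start site at 21870565. Metallothioneins are also induced by zinc through the factor MTF1, which binds metal response elements. Only the form TGCGCNC of their core was searched, on both strands, so elements with another form are missed. This form was in the 300-base promoters of 6 members, Mt1, Mt2, Sgk1, Zbtb16, Ddit4 and Tsc22d3, and in 17.2% of all promoters. It was in 0 of the 5 listed peaks and in 9.22% of the 217 female peaks. A match gives letters only, and occupancy by a factor was not measured.

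Among the 10 members, the level per kilobase of annotated exon was highest in Tat, the hepatocyte enzyme that begins tyrosine breakdown. Its mean normalized count was 61944 in males and 39021 in females, or 25692 and 16184 per kilobase. The level lay above that of 99.8% of the 16631 protein-coding genes with a mean above 0 in males and of 99.6% of 13621 in females. Tat alone made up 0.205% of the summed means of the male table and 0.127% of the female one.

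Mt1 and Mt2, the metal-binding metallothioneins of liver, ranked next in both sexes on this length. Mt1 stood at 1339 in males and 3946 in females, which is 1074 and 3167 per kilobase. Mt2 stood at 578 and 2261, or 609 and 2380 per kilobase. In males the level of Mt2 was close to that of Klf9, the next gene, and their order cannot be given. Per kilobase, Mt1 was 1.77 times Mt2 in males and 1.33 times in females. With the longest annotated transcript as length, it was 1.60 times Mt2 in males and 1.20 times in females. The transcripts of the pair share 0 of their 31-base words, so uniquely mapped reads can be told apart. Gm45774 overlaps 82.4% of the exon bases of Mt2 on the opposite strand, and the counting used strand.

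Klf9, a Krüppel-like transcription factor, and Nr3c1 followed, and their order differed between the sexes. Klf9 had a mean of 4949 in males and 5408 in females, or 602 and 658 per kilobase. The receptor gene Nr3c1 (ENSMUSG00000024431) had 4556 and 5333, or 578 and 677 per kilobase. It lay above 92.4% of protein-coding genes in males and 92.0% in females. Without a spread between animals, the order of neighbours this close cannot be given.

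Tsc22d3 encodes GILZ, an anti-inflammatory leucine zipper protein. Its mean was 3462 in males and 3023 in females, or 559 and 488 per kilobase. Zbtb16, a zinc finger repressor also called PLZF, had 2186 and 2334, or 233 and 248 per kilobase. On the union of exons these genes held places 6 and 7 in both sexes.

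Sgk1, a kinase that controls ion transport and cell survival, and Fkbp5, a co-chaperone that holds the receptor back, came close together. Sgk1 had 1112 in males and 869 in females, or 185 and 144 per kilobase, and Fkbp5 had 1792 and 2121, or 162 and 192 per kilobase. Sgk1 was the higher of the pair in males and Fkbp5 in females. Both genes, and Tsc22d3, depend on the length used. Scaled to the longest annotated transcript, Fkbp5 reached 403 in males and 477 in females, Sgk1 358 and 280, and Tsc22d3 1166 and 1019. On that length Tsc22d3 stood above Mt2 in males, at 773, and Zbtb16, at 274 in males and 293 in females, stood below Fkbp5 in both sexes. Some members hold genes on the same strand that share no exon base with them in the annotation. Fkbp5 holds Gm49839, a gene of unsettled type (TEC in the annotation), with a mean of 321 in males and 219 in females. Fkbp5 also holds the noncoding Gm49838, at 147 and 148. Tsc22d3 holds the pseudogene Gm53027, at 98.7 and 59.6, and Klf9 holds Mir1192, at 57.6 and 71.1. Zbtb16 holds Gm68109, which has no entry in either table, so its level is unknown.

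Ddit4, an inhibitor of the growth kinase mTORC1, was the member of lowest level. Its mean was 170 in males and 157 in females, or 62.7 and 57.8 per kilobase. It lay above 56.6% of protein-coding genes in males and 44.6% in females. The 2 percentiles are taken over different genes, since the female table starts at a mean of 6.61 and the male table at 0. The median percentile of the 10 members was 92.3 in males and 90.5 in females.

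**Figure D3:**
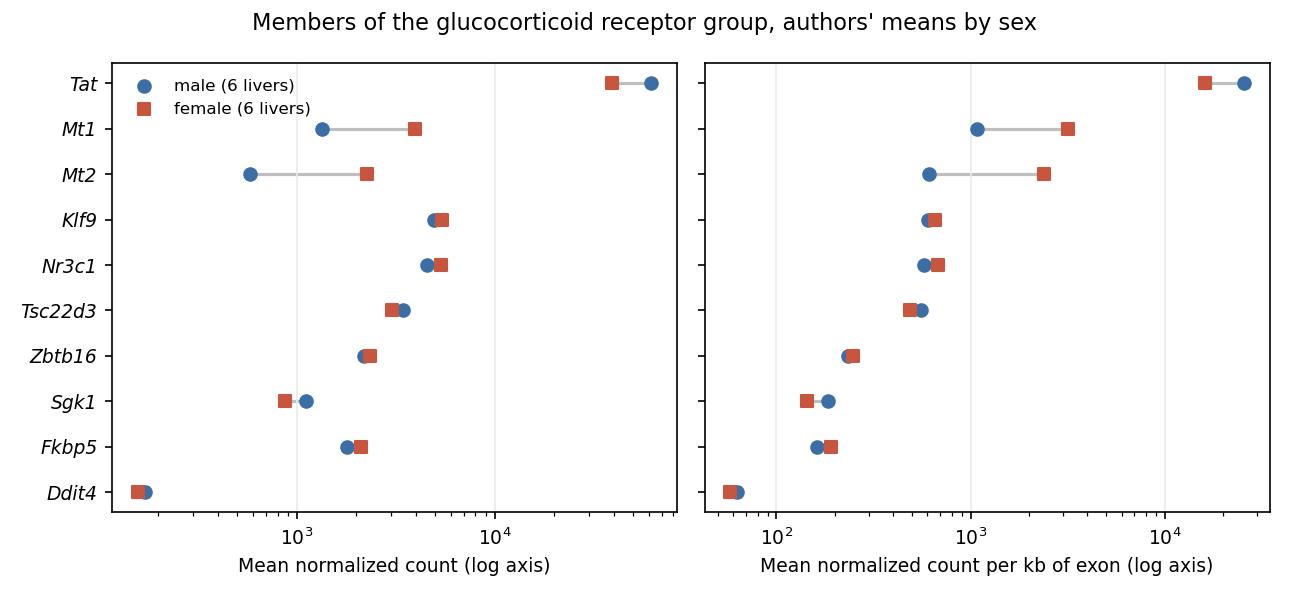
The left panel gives the authors' mean normalized count of each member and the right panel the same per kilobase of annotated exon, both on log axes, for males (blue circles) and females (red squares), each a mean of 6 livers with no error available. Tat is highest and Ddit4 lowest in both sexes, and the widest gaps between the sexes are those of Mt2 and Mt1.

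Both metallothioneins had higher means in females, and Tat had a lower one. The female mean was 2.95 times the male mean for Mt1 and 3.91 times for Mt2. For Tat it was 0.630 times, so the male mean was 1.59 times the female one. The other 7 members lay within 1.5-fold in either direction. The 2 tables were normalized separately, so these ratios compare 2 scales, which differ little. The median ratio over the 16283 genes with a mean of at least 10 in both tables was 1.04, and the sums over these genes had a ratio of 1.02.

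A ratio above 1.5 was found in 8.7% of the 16283 genes (1417) and in 2 of the 10 members. A ratio below 1 over 1.5 was found in 3.67% (598) and in 1 member. The median ratio was 1.08 in the members and 1.04 in all genes. Of the 10 members, 6 lay above 1 and 4 below, close to the 57.5% of all genes that lay above 1. The ratio of Mt2 exceeded that of 99.6% of genes and that of Mt1 99.3%, while 97.1% of genes had a higher ratio than Tat. Among genes with a mean of at least 100 in both tables, a set chosen after the values were seen, 4.53% lay above 1.5 and 2.85% below 1 over 1.5, and the same 3 members were past the fold.

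The remaining ratios were close to 1. Those above it were 1.18 in Fkbp5, 1.17 in Nr3c1, 1.09 in Klf9 and 1.07 in Zbtb16. Those below it were 0.922 in Ddit4, 0.873 in Tsc22d3 and 0.781 in Sgk1.

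**Figure D4:**
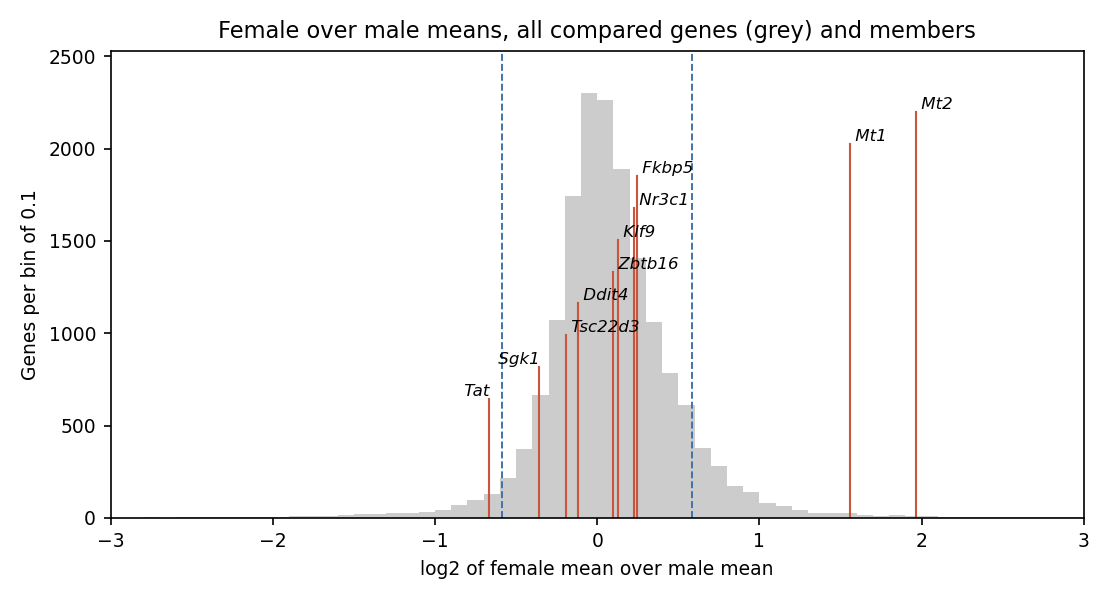
Grey bars count the genes with a mean of at least 10 in both tables by the log2 of the female over the male mean, 49 of the 16283 genes lying beyond the axis, and red lines mark the members. Dashed lines stand at 1.5-fold, and Mt1 at 1.56 and Mt2 at 1.97 on the log2 scale lie beyond the line on the right, while Tat at -0.67 lies beyond the one on the left.

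Of 8 genes of receptor and ligand handling, 7 could be compared. Of these, 1 lay above 1.5-fold, where 8.7% of all genes did, 1 lay below 1 over 1.5, where 3.67% did, and 5 lay between. Serpina6, which encodes the corticosteroid-binding globulin of plasma, had a mean of 7721 in males and 15513 in females, 2.01 times as high. Srd5a1, a 5α-reductase that inactivates glucocorticoids, had 2272 in males and 981 in females, 0.432 times. Akr1d1, a 5β-reductase that also clears them, had 6274 in males and 9395 in females, just short of 1.5-fold. Hsd11b1, which regenerates active hormone, had a ratio of 1.27. Hsd11b2, which inactivates it in kidney, had a mean of 0.152 in males and no entry in the female table.

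Genes whose proteins hold or assist the receptor had a narrower range of ratios in RNA. The 7 chaperone genes, Fkbp5 among them, had ratios from 0.845 in Hsp90aa1 to 1.18 in Fkbp5, with a median of 0.986. The 7 coactivators and corepressors reported here ranged from 0.973 in Ep300 to 1.13 in Nrip1, with a median of 1.00. None of these 7 chaperones and 7 coregulators was past 1.5-fold. Over all genes 8.7% lay above it and 3.67% below 1 over 1.5. Among genes with a mean of at least 100, as all of these have, the shares were 4.53% and 2.85%. With lists this short, nothing is read from the count.

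Of the other known targets of the receptor, 15 could be compared. A ratio below 1 over 1.5 was found in 5 of them, beside 3.67% of all genes, and a ratio above 1.5 in 1, beside 8.7%. The median ratio was 0.869 in the list and 1.04 in all genes. The list was drawn up with earlier results known and no test was run on it. The 5 were Bcl6 at 0.459, Dusp1 at 0.495, Lcn2 at 0.541, Cebpd at 0.549 and Per1 at 0.627, which encode a repressor, a kinase phosphatase, an iron-siderophore carrier, a C/EBP factor and a clock protein. Pdk4, a kinase that shuts off pyruvate oxidation, was the 1 above, at 1.89. The enzymes of glucose output were close to 1, with 0.906 in Pck1 and 0.869 in G6pc1. Tdo2, which breaks down tryptophan, had 0.676, just short of the fold on the low side, and Angptl4, which blocks lipoprotein lipase, had 1.47, just short of it on the high side. The list holds 16 symbols, of which G6pc is an older name of G6pc1 and matched no row.

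In the metallothionein group 4 genes could be compared, and 8.7% of all genes lay above 1.5 and 3.67% below 1 over 1.5. Mt1 and Mt2, the same 2 members already counted above 1.5, were the only ones of the 4 past the fold. Their activator Mtf1 had 1000 in males and 793 in females, a ratio of 0.793, and Slc30a1, a zinc exporter that MTF1 also induces, had 0.896. Mt3 and Mt4, which belong to brain and squamous epithelium, were listed at 0 in males and have no entry in the female table.

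**Figure D5:**
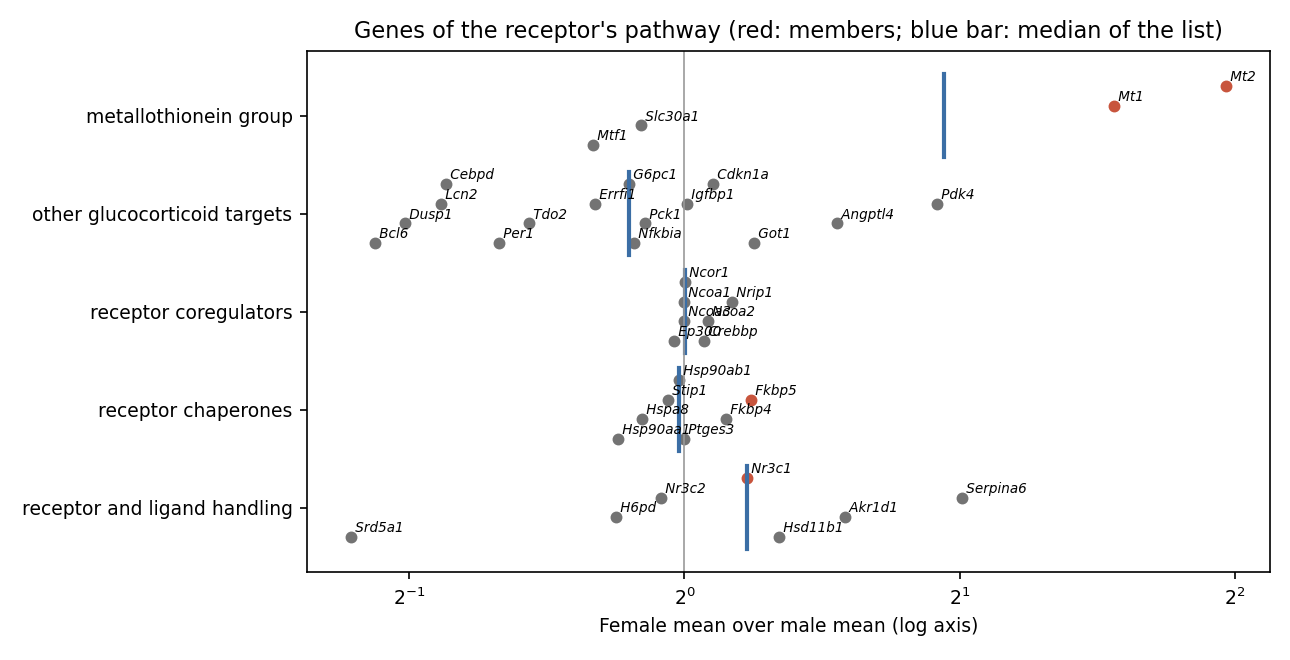
Each point is a gene of a pathway list placed by its female mean over its male mean on a log axis, with the 10 members' points in red where they belong to a list and a blue bar at the median of the list. Chaperones and coregulators lie between 0.845 and 1.18, and Mt1 and Mt2 lie farthest to the right at 2.95 and 3.91.

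Sex-linked genes matched the labelled sex of each table. Xist had a mean of 14.0 in males and 72478 in females, and the Y-linked Ddx3y had 3147 in males and no entry in the female table. The median level of the 6 hepatocyte markers was 54754 per kilobase in males and 52970 in females, and their ratios ran from 0.734 to 1.35. Markers of other liver cells were present as well. All 5 stellate cell markers had ratios from 1.22 to 1.42, the 5 Kupffer cell markers from 0.658 to 1.29, the 5 endothelial markers from 0.743 to 1.21, the 4 lymphocyte markers from 1.00 to 1.18, and the 4 cholangiocyte markers, whose means were at most 245, from 0.854 to 1.93. Their part in the ratios of the members was not tested. Midn itself had a mean of 1672 in males and 1357 in females, and such means cannot check the genotype labels.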

How the data were processed

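The series holds 12 RNA-seq and 8 ATAC-seq samples, grouped here by title (RNA-seq) and library name (ATAC-seq), since 5 ATAC-seq titles contradict the library name. The authors aligned RNA-seq reads to GRCm39 with STAR (2.7 per the processing notes), assigned uniquely mapped reads to Ensembl release 110 genes using HTSeq with the reverse strand setting, and compared genotypes separately in males and females with DESeq2. From the deposited tables only a signal column was used, the average of 6 size-factor-scaled counts. Counts per sample were not used here, so depth is unknown. The fold change, standard error, statistic and p-value columns hold the authors' own comparison and were not used. For ATAC-seq the authors merged MACS2 peaks, set them to 500 bp, counted reads with featureCounts and compared genotypes with edgeR. The deposited lists hold positions selected at FDR below 0.1 in females and raw P below 0.05 in males, with a direction that was not used.

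Genes were joined by Ensembl identifier. Levels were divided by the union of exons in GENCODE M39, which gave a length for 56323 of 56884 male and 18045 of 18149 female genes. Ratios used genes with a mean of at least 10 in both tables. Peaks were joined to the nearest start site of a protein-coding gene, and sequences were read from GRCm39. The motif search found all 100 planted copies of each of 2 motifs, and the join was right for 200 of 200 made-up peaks. Python 3.11.15, numpy 2.4.6, pandas 2.3.3, pyfaidx 0.9.0.4 and matplotlib 3.10.9 were used. Named genes are the members, genes overlapping them or their peaks, and genes of the lists for the pathway and cell types, with Midn, Ces1e and the sex-linked genes as checks. One gene of the coregulator list is not reported here. The members and lists were chosen with earlier results of these data known. Alternatives were another gene length, other sets for the percentile, 2 scalings, a pseudocount of 1, a fold of 2, other definitions of the nearest gene, other motifs and a wider window.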

Additional observations from a re-analysis of the deposited data

How the results depend on the processing

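With 1 mean per sex, no replicate could be left out. No paired analysis was possible because the columns carry no single sample. The scalings, the pseudocount of 1 and the mean of at least 100 can by construction move the ratio of a member little, and say nothing of stability. With a fold of 2, the count of members below 1 over the fold went from 1 (Tat) to 0. With the longest transcript as length, 6 of 20 levels per kilobase moved by over 1.5 times, those of Fkbp5, Tsc22d3 and Sgk1.

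Counting noncoding genes as candidates for the nearest start site left 1 of the 5 female peaks with a member, that of Mt2. The candidates came from GENCODE M39, and some, such as Gm65739 at Fkbp5 and Gm68375 at Zbtb16, have no entry in either RNA-seq table. The male table lists genes down to a mean of 0, so a missing entry is not a level of 0. The nearest gene body left the count at 5, and a limit of 100000 bases gave 4. Promoters of members with an element went from 1 to 0 with the stricter pattern, to 0 with the single site, which 16.7% of all promoters held, and to 3 in the wider window. In that window the single site was in 10 of 10 members and in 85.5% of all. Members' peaks with an element went from 2 to 0 with the stricter pattern. Without counts per sample, the counting error of low means such as that of Ddit4 is unknown.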
